A study of Homo sapiens with 91 samples.

Results

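The genes of homologous recombination and of the Fanconi pathway were described across 3 human cancer cell lines treated with a CDK9 degrader or a CDK9 inhibitor. The set holds 34 protein-coding genes of 62710 gene entries in the count tables, taken by their symbols: BRCA1, BRCA2, BARD1, PALB2, BRIP1, RAD51B, RAD51C, RAD51D, XRCC2, XRCC3, RAD54L, RBBP8, MRE11, RAD50, NBN, ATM, ATR, CHEK1, CHEK2, FANCA, FANCB, FANCC, FANCD2, FANCE, FANCF, FANCG, FANCI, FANCL, FANCM, UBE2T, SLX4, BLM, EXO1 and OGG1. No cut on a measured value defined the set, though earlier results of these data were known when it was chosen. OGG1, which acts in base excision repair, is the member outside both pathways. The lines were MOLT4 (acute lymphoblastic leukemia), PSN1 (pancreatic adenocarcinoma) and RH4 (rhabdomyosarcoma), grown from small numbers of seeded cells. Each line received KI-CDK9d-32 (a degrader of CDK9), KB-0742 (an inhibitor of CDK9) or the vehicle DMSO. MOLT4 was collected for all 3 treatments at 2, 4 and 8 h, PSN1 for all 3 at 4 and 8 h and for vehicle and KI-CDK9d-32 at 2 h, and RH4 for all 3 at 4 and 8 h. That gave 91 libraries in 23 groups of 4, with 3 in the MOLT4 vehicle group at 4 h, and the labels give no dose.

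CDK9 is the kinase of P-TEFb, which releases paused RNA polymerase II into productive elongation, so an agent against it acts on transcription broadly. Homologous recombination repairs a double-strand break by copying the sister chromatid: the MRE11-RAD50-NBN complex and CtIP (the product of RBBP8) trim the end, EXO1 and BLM extend the single strand, and BRCA1, PALB2 and BRCA2 act on that strand before it pairs with its template. The Fanconi pathway clears crosslinks between the strands: a core ubiquitin ligase, working with the E2 enzyme UBE2T, puts ubiquitin on FANCD2 and FANCI, which then recruit nucleases. Many of these genes are transcribed most in cells that are copying their DNA, and several (BRCA1, ATM, FANCD2 among them) are known in the literature to depend on CDK12 for full-length transcripts.

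The libraries held 1598283 to 3240753 estimated counts on genes. Markers of each line were present in its own libraries: a T-lineage list summed to between 489 and 1056 CPM (counts scaled to a common total per library) in MOLT4, an epithelial list to between 2636 and 7410 CPM in PSN1 and a muscle-lineage list to between 1961 and 3633 CPM in RH4. All levels below are CPM scaled by TMM, which sets the bulk of genes equal between libraries, and all changes are log2 fold changes ± standard error on that scale. A member was called lower or higher when its adjusted p from edgeR's quasi-likelihood test, over all genes tested in the line, was under 0.05. The libraries also carried synthetic RNA added in equal amount to each lysate. Scaled to it, the median change of all genes tested at 8 h was -2.99, -1.01 and -0.92 for the degrader in MOLT4, PSN1 and RH4, and -1.41, -0.94 and -1.66 for the inhibitor in the same order. "Higher" therefore means higher relative to other genes, and no member was called higher than vehicle with spike-in scaling in any comparison. In MOLT4 the spike-in took 39.9% of counts with KI-CDK9d-32 at 8 h, against 14.5% in vehicle, with 61.5% in replicate 3. In such bulk samples fewer cells and less RNA per cell cannot be told apart.

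Low values and shared exons limit a few members. FANCE did not pass the filter on low counts in MOLT4 or PSN1, so 33 members were tested there and all 34 in RH4. An exon of 20 members overlaps another annotated gene, among them BRCA1 (RPL21P4), RAD51D (a read-through with RFFL), CHEK1 (STT3A), CHEK2 (HSCB), FANCA (ZNF276), FANCF (GAS2), FANCL (VRK2) and OGG1 (CAMK1 and TADA3). The library kit does not keep strand, so reads within a shared stretch cannot be assigned by strand. For RAD51D and CHEK1 the named neighbour lies on the same strand. How many reads fell in shared stretches was not measured.

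The start regions of 5 members are shown as examples of genes called in all 3 lines, and of 1 called unlike between lines, without ranking them over others such as FANCL, BLM, BRCA1 and BRCA2: RAD51C and UBE2T, lower in all 3 lines with the degrader; FANCA, lower in all 3 lines with the inhibitor; FANCM, higher in all 3 with the inhibitor; and OGG1, whose change with the inhibitor differed between MOLT4 and the other lines. Each runs 5′ to 3′ on the gene's own strand from 250 bases before the RefSeq start (GRCh38.p14), without exon bases, and capitals mark a match to one of the motifs given after them.
RAD51C, chr17:58692323-58692572, plus strand: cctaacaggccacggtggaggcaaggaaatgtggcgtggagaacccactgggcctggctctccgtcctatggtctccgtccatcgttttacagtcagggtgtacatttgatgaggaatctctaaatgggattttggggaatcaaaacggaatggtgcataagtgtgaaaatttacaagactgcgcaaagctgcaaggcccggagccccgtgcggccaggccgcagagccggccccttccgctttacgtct
UBE2T, chr1:202341981-202342186, minus strand: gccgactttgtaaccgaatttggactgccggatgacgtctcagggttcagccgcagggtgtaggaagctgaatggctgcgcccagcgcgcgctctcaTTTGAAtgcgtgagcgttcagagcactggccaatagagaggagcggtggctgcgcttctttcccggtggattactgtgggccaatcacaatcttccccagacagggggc
FANCA, chr16:89816658-89816897, minus strand: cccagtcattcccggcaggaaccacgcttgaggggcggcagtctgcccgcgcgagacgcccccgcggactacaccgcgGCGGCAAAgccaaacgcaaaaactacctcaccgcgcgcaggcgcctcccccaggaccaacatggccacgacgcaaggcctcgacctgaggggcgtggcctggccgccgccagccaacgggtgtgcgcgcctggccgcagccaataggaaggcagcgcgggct
FANCM, chr14:45135680-45135929, plus strand: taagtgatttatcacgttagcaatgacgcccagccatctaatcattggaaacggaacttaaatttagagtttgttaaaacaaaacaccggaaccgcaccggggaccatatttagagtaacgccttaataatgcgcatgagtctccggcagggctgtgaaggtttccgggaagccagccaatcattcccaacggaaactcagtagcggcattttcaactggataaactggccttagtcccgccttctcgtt
OGG1, chr3:9749702-9749943, plus strand: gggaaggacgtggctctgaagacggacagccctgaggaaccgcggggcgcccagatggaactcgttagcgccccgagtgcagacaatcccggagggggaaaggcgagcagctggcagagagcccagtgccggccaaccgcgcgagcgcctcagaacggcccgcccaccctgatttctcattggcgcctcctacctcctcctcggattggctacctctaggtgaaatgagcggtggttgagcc

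The 3 motifs, all of cell-cycle or growth control, were searched on both strands in windows of 300 bases around the start of the 32 members with a RefSeq entry and of all 27305 genes with one. The E2F words TTTCCCGC, TTTCGCGC, TTTGCCGC and TTTGGCGC, bound by the E2F factors of S phase, were in 5 members (XRCC2, FANCA, FANCC, FANCD2 and EXO1), or 15.6%, against 3.99% of all. The CHR word TTTGAA, an element of late cell-cycle genes, was in 4 members (BRIP1, ATM, FANCC and UBE2T), or 12.5%, against 18.2% of all. The NRF1 word GCATGCGC was in 3 members (XRCC2, RBBP8 and SLX4), or 9.38%, against 3.68% of all. In the regions shown, FANCA holds an E2F word on the other strand at base -172 and UBE2T a CHR word at base -153, while RAD51C, FANCM and OGG1 hold none of the words.

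At 8 h more members were lower than higher with either compound in every line. With KI-CDK9d-32, 9 of 33 members were lower and 6 higher in MOLT4 (of all genes tested, 28.7% were lower and 20.8% higher), 5 of 33 lower and 1 higher in PSN1 (9.61% and 11%), and 6 of 34 lower and 1 higher in RH4 (6.05% and 9.19%). With KB-0742, 14 of 33 were lower and 4 higher in MOLT4 (25.8% and 23.4%), 10 of 33 lower and 2 higher in PSN1 (15.1% and 15.1%), and 16 of 34 lower and 4 higher in RH4 (22.9% and 22.5%). In MOLT4 with the degrader the share of members lower lay near that of all genes. The members' median change with KI-CDK9d-32 was -0.15 in MOLT4, -0.35 in PSN1 and -0.21 in RH4, beside -0.18, -0.05 and -0.04 for all genes tested. With KB-0742 it was -0.55 in MOLT4, -0.50 in PSN1 and -0.73 in RH4, beside -0.10, -0.05 and -0.09.

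**Figure D1:**
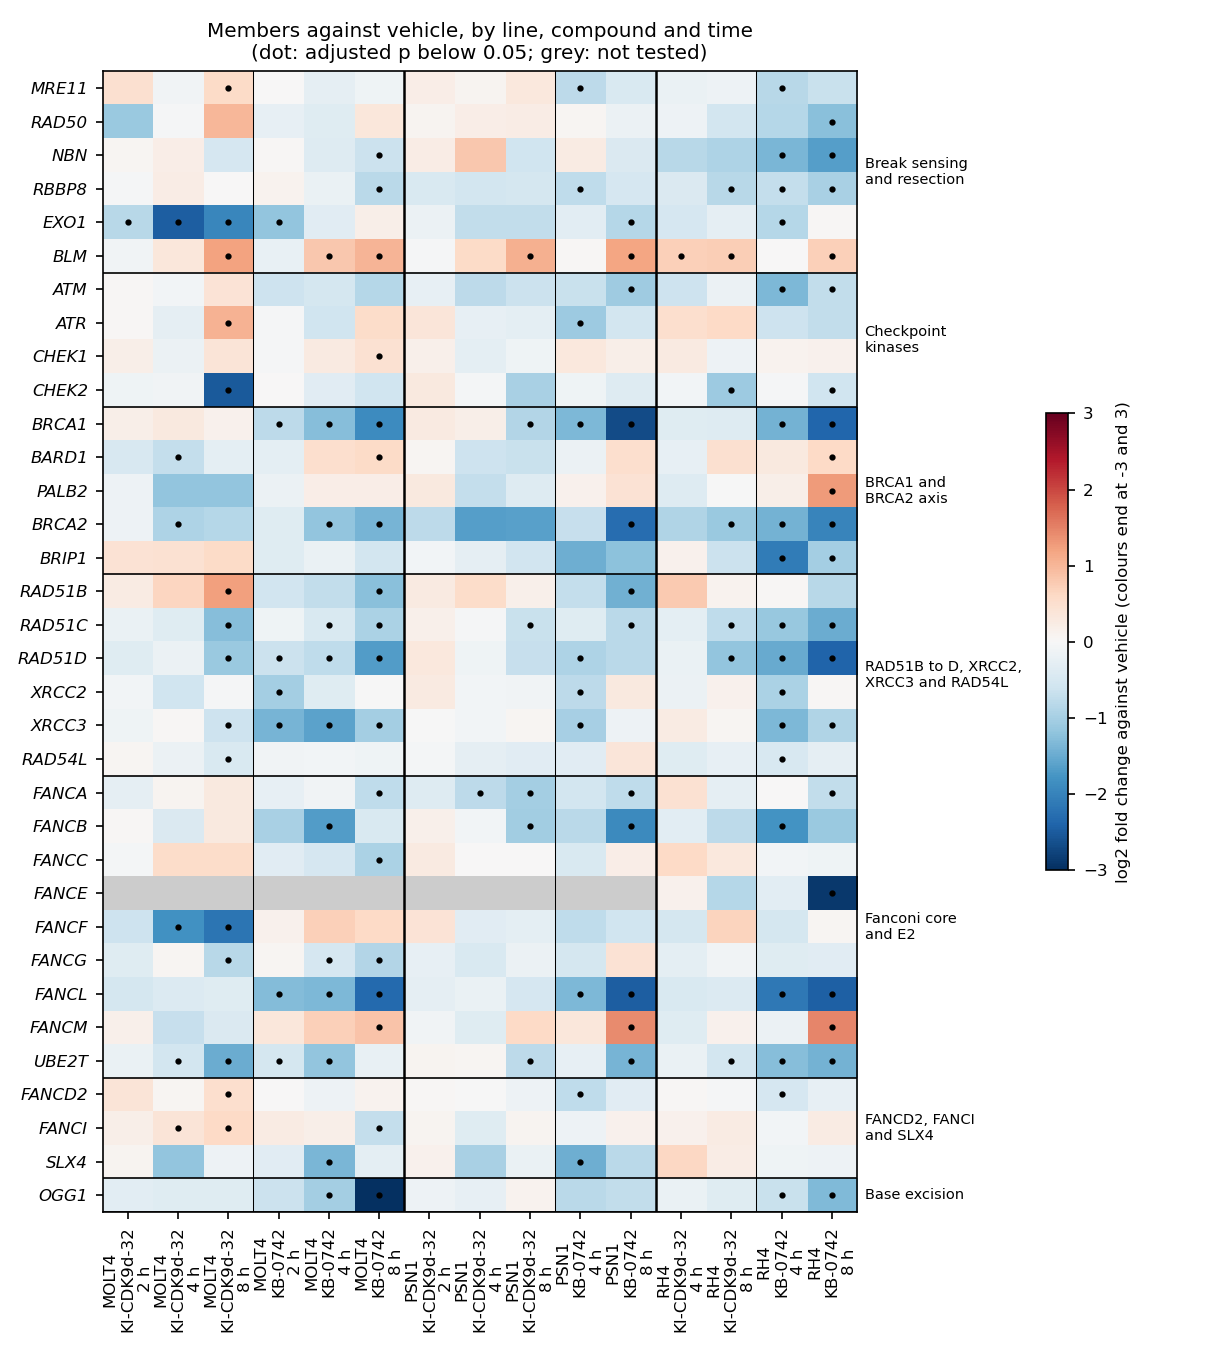
Change of each of the 34 members (rows, grouped by role) from vehicle in each line with each compound at each time (columns), as log2 fold change on the TMM scale, with a dot on calls at adjusted p under 0.05 and grey where a member was not tested. BRCA1 and FANCL have a dot in every KB-0742 column, at -1.89 to -2.67 and -2.33 to -2.47 at 8 h, BLM is red in all 8 h columns on this scale though called higher in none with spike-in scaling, and the dark FANCE cell of RH4 rests on 3 counts with KB-0742.

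**Figure D2:**
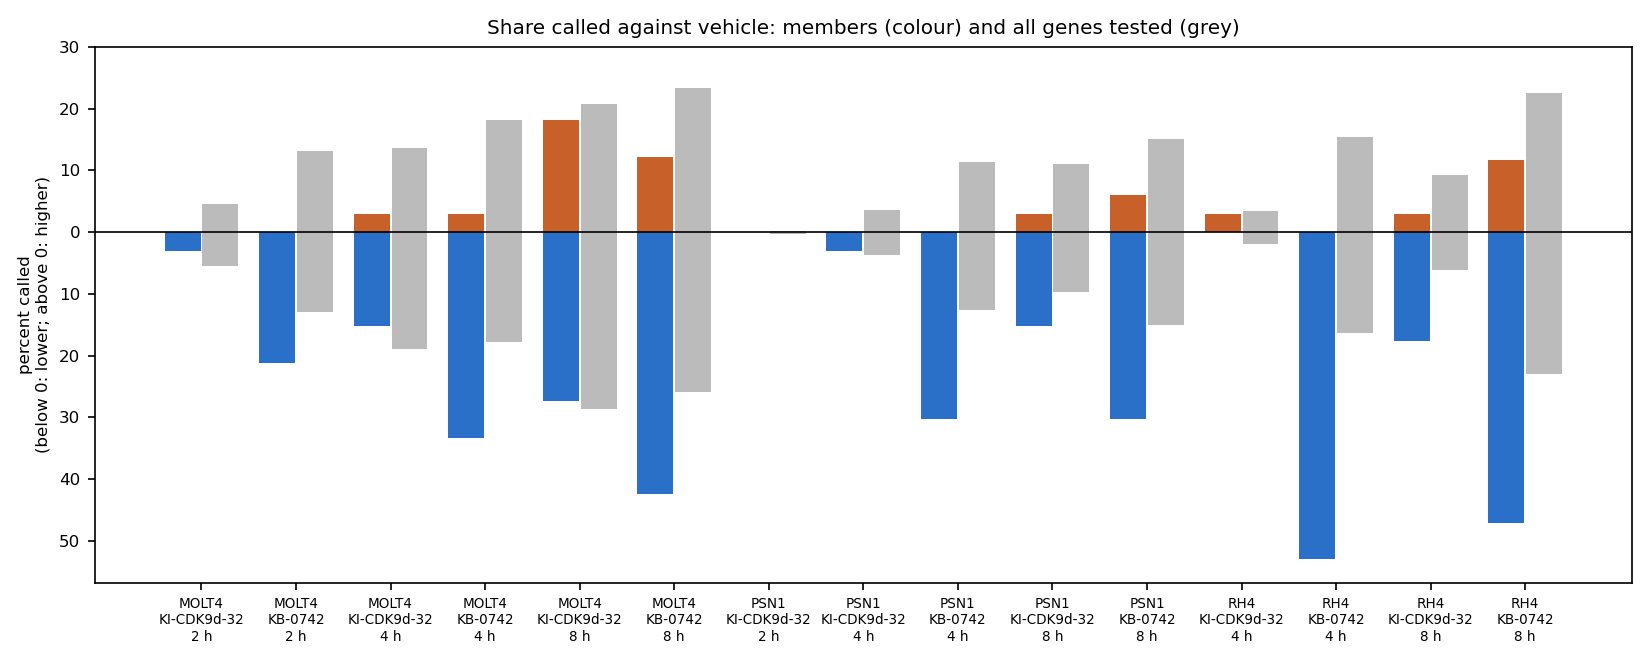
Share of members called lower or higher than vehicle (blue bars downward for lower, orange bars upward for higher, percent) beside the same share of all genes tested (grey), for each line, compound and time. The members' share lower with KB-0742 exceeds that of all genes in each line at 4 h and 8 h.

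Some of these counts rested on 1 library. The 10 members lower with KB-0742 in PSN1 became 6 without KB-0742 replicate 4. Of the 5 lower with KI-CDK9d-32 in PSN1, 3 were lower without vehicle replicate 1 or without KI-CDK9d-32 replicate 2. The 6 lower with KI-CDK9d-32 in RH4 became 3 without KI-CDK9d-32 replicate 4, and the 1 higher became 2 without vehicle replicate 4. The 4 higher with KB-0742 in MOLT4 became 2 without vehicle replicate 1 or 2, and the 1 higher with KI-CDK9d-32 in PSN1 (BLM) was lost without vehicle replicate 1, 3 or 4 or KI-CDK9d-32 replicate 1 or 3. Of the 78 calls against vehicle at 8 h, 31 were lost without at least 1 library, and these are given with each gene.

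Some members were called in several lines and others in 1 only. With KI-CDK9d-32, 10 of the members called lower and 5 of those called higher were called in 1 line, and with KB-0742, 9 lower and 2 higher. The number of all genes called in 1, 2 or 3 lines is not given, so recurrence here does not set the members apart. BRCA1, BRCA2, RAD51C, FANCA and FANCL were lower with KB-0742 in all 3 lines, and RAD51B, RAD51D, XRCC3, RBBP8, NBN, ATM, UBE2T and OGG1 in 2 of them. RAD51C and UBE2T were lower with KI-CDK9d-32 in all 3 lines, and RAD51D and CHEK2 in 2. BLM was higher in all 3 lines with either compound and FANCM in all 3 with KB-0742, on the TMM scale; with spike-in scaling BLM and FANCM were called higher in none. XRCC2, a partner of RAD51D, and SLX4, the scaffold of structure-specific nucleases, were called in no comparison with vehicle at 8 h, with changes from -0.10 to 0.29 and from -0.81 to 0.21.

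At 2 h few members had moved. In MOLT4 with KI-CDK9d-32, 1 of 33 was lower (EXO1, -0.83 ± 0.24, adjusted p = 0.015) and 0 higher, against 5.41% and 4.57% of all genes. EXO1 is the nuclease that lengthens the resected strand, and its call was lost without vehicle replicate 3 or KI-CDK9d-32 replicate 1 (adjusted p = 0.075 to 0.092). With KB-0742 in MOLT4, 7 of 33 were lower and 0 higher (12.9% and 13.2% of all genes): UBE2T (-0.52), FANCL (-1.31), XRCC3 (-1.39), XRCC2 (-1.01), EXO1 (-1.19), BRCA1 (-0.79) and RAD51D (-0.64). BRCA1 was no longer called without KB-0742 replicate 1 or 4 (adjusted p = 0.05 to 0.055), nor RAD51D without vehicle replicate 1 or 4 or KB-0742 replicate 1, 2 or 4 (adjusted p = 0.053 to 0.13). In PSN1 with KI-CDK9d-32, edgeR called 0 of 33 members lower or higher (0.353% and 0.128% of all genes), and 0 had an unadjusted p under 0.05; DESeq2 called 0 as well.

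At 4 h the members lower with KB-0742 were 11 of 33 in MOLT4, 10 of 33 in PSN1 and 18 of 34 in RH4, against 17.7%, 12.6% and 16.3% of all genes. Those higher were 1, 0 and 0, against 18.1%, 11.3% and 15.4%. BRCA1 was lower in all 3 lines (-1.27 ± 0.29, -1.34 ± 0.35 and -1.42 ± 0.25 for MOLT4, PSN1 and RH4) and stayed so without any 1 library. With KI-CDK9d-32 the members lower were 5 of 33 in MOLT4, 1 of 33 in PSN1 and 0 of 34 in RH4, against 18.9%, 3.74% and 1.89%, and those higher were 1, 0 and 1, against 13.6%, 3.62% and 3.47%. UBE2T (-0.54), EXO1 (-2.48) and FANCF (-1.82) were lower in MOLT4 whichever library was left out.

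RH4 had the most members lower with KB-0742 at 4 h. The 13 that stayed called without any 1 library were BRCA1, BRCA2 (-1.42), BRIP1 (-2.09), RAD51C (-1.14), RAD51D (-1.52), XRCC2 (-0.95), XRCC3 (-1.35), ATM (-1.36), FANCB (-1.79), FANCD2 (-0.50), FANCL (-2.14), UBE2T (-1.28) and OGG1 (-0.66). The other 5, MRE11, RAD54L, RBBP8, NBN and EXO1, were each lost without at least 1 library. In MOLT4 the calls of BRCA1, UBE2T, XRCC3 and FANCB with KB-0742 stayed without any 1 library, and in PSN1 those of BRCA1, FANCL and FANCD2. MOLT4's 11 became 6 without vehicle replicate 3 and 7 without vehicle replicate 4 or KB-0742 replicate 2, and PSN1's 10 became 5 without vehicle replicate 2 or 4 or KB-0742 replicate 3 and 6 without KB-0742 replicate 1. The 5 lower with KI-CDK9d-32 in MOLT4 became 3 without vehicle replicate 3. The single calls at 4 h of FANCA with KI-CDK9d-32 in PSN1, BLM with KI-CDK9d-32 in RH4, FANCI with KI-CDK9d-32 in MOLT4 and BLM with KB-0742 in MOLT4 were each lost without at least 1 library.

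BRCA1 (chr17:43044295-43170245, minus strand), the ubiquitin ligase that channels breaks to recombination, separated the compounds in every line on the TMM scale. In MOLT4, BRCA1 was at 26.2, 21.8, 22.9 and 26.5 CPM in vehicle, 26.9, 19.5, 17.5 and 41.5 CPM with KI-CDK9d-32 and 6.32, 7.86, 8.54 and 3.8 CPM with KB-0742. In PSN1, BRCA1 was at 34.1, 24.6, 17.2 and 18.7 CPM in vehicle, 17.9, 13.8, 10.4 and 8.97 CPM with KI-CDK9d-32 and 1.29, 5.76, 4.73 and 2.62 CPM with KB-0742. In RH4, BRCA1 was at 39.6, 28.6, 28.4 and 29.5 CPM in vehicle, 26.5, 26.5, 20.1 and 23.5 CPM with KI-CDK9d-32 and 7.75, 7.01, 4.13 and 4.97 CPM with KB-0742. All 12 libraries with KB-0742 lay below every vehicle library of their line, while the degrader's values overlapped vehicle in MOLT4 and PSN1 and lay just below it in RH4.

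The change of BRCA1 with KB-0742 at 8 h was -1.89 ± 0.28, adjusted p = 1.7e-07 in MOLT4, -2.67 ± 0.36, adjusted p = 2.5e-07 in PSN1 and -2.38 ± 0.29, adjusted p = 7.6e-09 in RH4. With KI-CDK9d-32 it was 0.13 ± 0.25, adjusted p = 0.68 in MOLT4, -0.87 ± 0.31, adjusted p = 0.037 in PSN1 and -0.38 ± 0.23, adjusted p = 0.28 in RH4. The PSN1 call with the degrader was lost without vehicle replicate 1 or 2 or KI-CDK9d-32 replicate 2, 3 or 4 (adjusted p = 0.058 to 0.16). Compared directly, BRCA1 was higher with KI-CDK9d-32 than with KB-0742 by 2.03 ± 0.29, 1.80 ± 0.37 and 2.00 ± 0.30 for MOLT4, PSN1 and RH4, and by 0.65, 1.75 and 2.68 with spike-in scaling. The degrader's effect on BRCA1 was higher in MOLT4 than in PSN1 on the TMM scale (1.13 ± 0.41, adjusted p = 0.047), a call lost in 11 refits that left out 1 library. With spike-in scaling this difference was -0.80, not called.

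BRCA2 (chr13:32315474-32400266, plus strand), which acts on the resected strand, was low in all lines. In MOLT4, BRCA2 was at 9.81, 16.2, 10.2 and 10.4 CPM in vehicle, 9.18, 7.32, 1.84 and 6.43 CPM with KI-CDK9d-32 and 1.81, 5.24, 9.44 and 1.52 CPM with KB-0742. In RH4, BRCA2 was at 14.1, 15.7, 10.3 and 18.3 CPM in vehicle, 6.75, 8.39, 6.15 and 5.7 CPM with KI-CDK9d-32 and 2.77, 6.37, 3.54 and 1.66 CPM with KB-0742. Every treated value in these lines lay below every vehicle value. In PSN1, where vehicle held only 3.07, 4.24, 8.87 and 1.65 CPM, the groups overlapped. The change with KB-0742 was -1.39 ± 0.37, adjusted p = 0.0018 in MOLT4, -2.30 ± 0.77, adjusted p = 0.021 in PSN1 and -1.99 ± 0.39, adjusted p = 5.5e-05 in RH4, the PSN1 call being lost without vehicle replicate 3 or KB-0742 replicate 3 or 4 (adjusted p = 0.068 to 0.13). With KI-CDK9d-32 it was -0.86 ± 0.38 in MOLT4 and -1.62 ± 0.72 in PSN1, neither called, and -1.10 ± 0.33, adjusted p = 0.019 in RH4, lost without vehicle replicate 4 or KI-CDK9d-32 replicate 3 or 4 (adjusted p = 0.051 to 0.07).

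BARD1 and PALB2 were called higher with KB-0742 on the TMM scale where BRCA1 and BRCA2 were called lower, though both were below 0 with spike-in scaling. BARD1 (chr2:214725646-214809711, minus strand), the partner that BRCA1 needs as a ligase, was in MOLT4 at 37.6, 40.8, 49 and 52.4 CPM in vehicle, 32.8, 27.5, 57.2 and 32.2 CPM with KI-CDK9d-32 and 54.2, 61.8, 80.5 and 70.3 CPM with KB-0742. With KB-0742 all 4 of its values lay above vehicle there (0.57 ± 0.19, but -0.75, not called, with spike-in scaling). In RH4 the change was 0.59 ± 0.20 (-0.97 with spike-in scaling). The call in MOLT4 was lost without KB-0742 replicate 3 (adjusted p = 0.05), and that in RH4 without vehicle replicate 3 or KB-0742 replicate 2 (adjusted p = 0.053 to 0.07). BARD1 was lower with KI-CDK9d-32 than with KB-0742 in MOLT4 (-0.87 ± 0.21) and PSN1 (-1.16 ± 0.31), the opposite side from BRCA1.

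PALB2 (chr16:23603160-23641310, minus strand), the bridge between BRCA1 and BRCA2, was in RH4 at 12.1, 7.72, 9.75 and 8.43 CPM in vehicle, 6.75, 12.1, 7.79 and 10.7 CPM with KI-CDK9d-32 and 21.6, 33.8, 18.3 and 19.1 CPM with KB-0742. KB-0742 values there all lay above vehicle and above the degrader. The change was 1.29 ± 0.29, adjusted p = 0.00035 on the TMM scale and -0.27, not called, with spike-in scaling. PALB2 was lower with KI-CDK9d-32 than with KB-0742 in RH4 (-1.30 ± 0.30) and in MOLT4 (-1.38 ± 0.59), the MOLT4 call being lost without KB-0742 replicate 1 or 3 or KI-CDK9d-32 replicate 1, 2 or 4 (adjusted p = 0.051 to 0.26). BRIP1, the helicase that binds BRCA1, was lower with KB-0742 in RH4 (-1.02 ± 0.42; lost without vehicle replicate 1, 3 or 4 or KB-0742 replicate 1 or 4 (adjusted p = 0.063 to 0.15)) and was called in no other comparison with vehicle at 8 h. It was thus on the side of BRCA1 in RH4, where it was also lower at 4 h (-2.09).

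**Figure D3:**
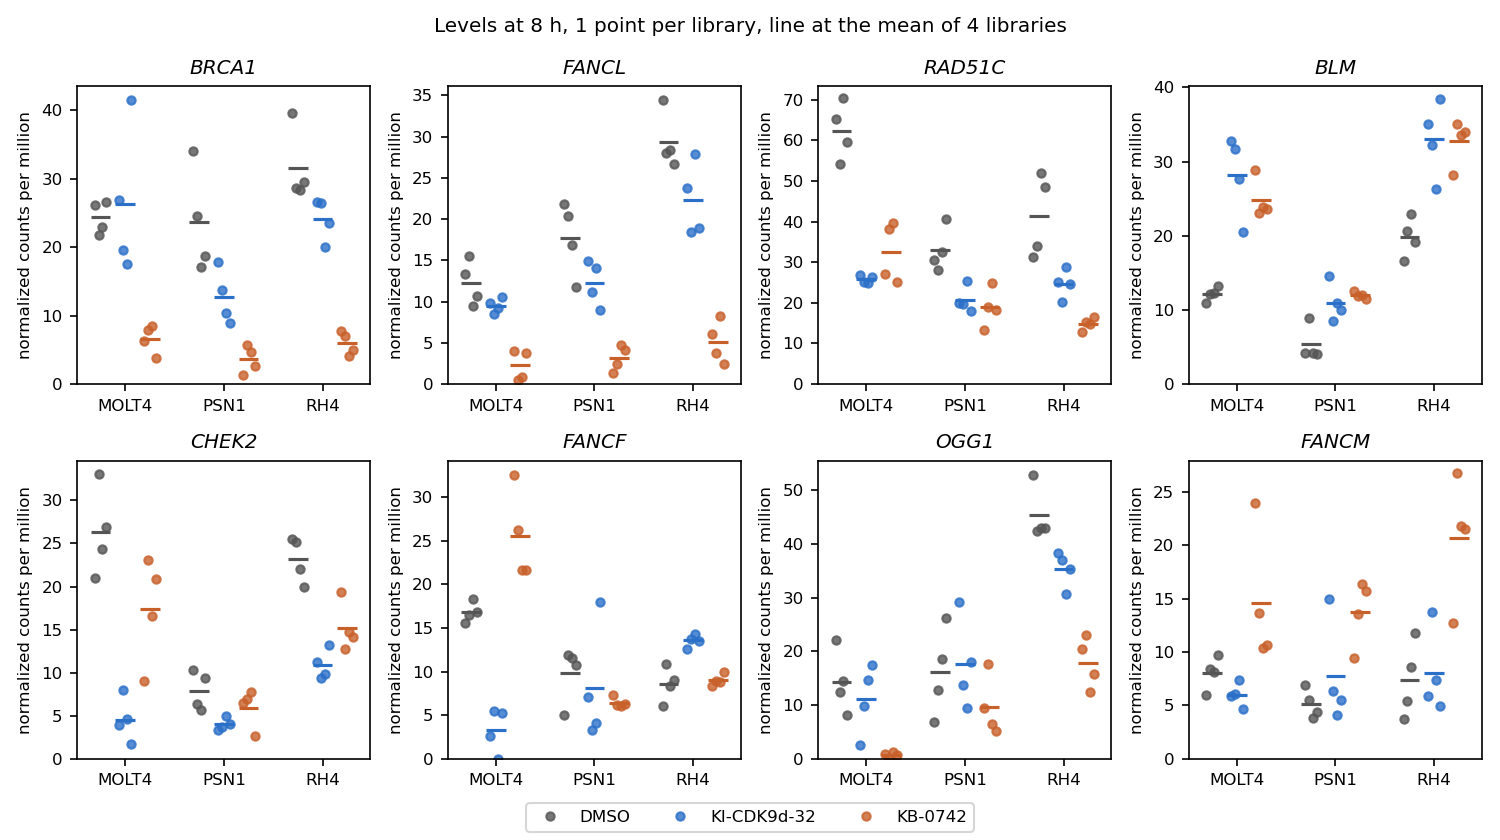
Level of selected members in each library at 8 h (points, TMM-scaled CPM, linear axis from 0) by line and treatment, with a bar at the group's mean. BRCA1 with KB-0742 lies between 1.29 and 8.54 CPM, below all vehicle libraries, which lie between 17.2 and 39.6 CPM.

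RAD51B, RAD51C, RAD51D, XRCC2 and XRCC3 form small complexes that act on the resected strand. RAD51C (chr17:58692573-58735611, plus strand; its start region is printed above) was called in all 6 comparisons with vehicle at 8 h. In MOLT4, RAD51C was at 65.1, 54.2, 70.5 and 59.6 CPM in vehicle, 26.9, 25, 24.9 and 26.3 CPM with KI-CDK9d-32 and 27.1, 38.2, 39.6 and 25.1 CPM with KB-0742. In PSN1, RAD51C was at 30.7, 28, 32.5 and 40.7 CPM in vehicle, 20, 19.7, 25.4 and 17.9 CPM with KI-CDK9d-32 and 13.4, 18.9, 24.9 and 18.3 CPM with KB-0742. In RH4, RAD51C was at 31.3, 34, 51.9 and 48.6 CPM in vehicle, 25.2, 20.1, 28.7 and 24.6 CPM with KI-CDK9d-32 and 12.7, 15.3, 14.7 and 16.6 CPM with KB-0742. No treated value reached a vehicle value in any line. The changes with KI-CDK9d-32 were -1.27 ± 0.19, -0.67 ± 0.20 and -0.75 ± 0.21 in MOLT4, PSN1 and RH4, and with KB-0742 -0.95 ± 0.17, -0.81 ± 0.20 and -1.49 ± 0.23. The degrader's call in PSN1 was lost without vehicle replicate 4 (adjusted p = 0.059), and that in RH4 without vehicle replicate 3 (adjusted p = 0.055).

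RAD51D (chr17:35092208-35121522, minus strand) was in MOLT4 at 34.6, 35.8, 33.5 and 53.1 CPM in vehicle, 20.3, 12.8, 27.7 and 14 CPM with KI-CDK9d-32 and 10.8, 4.71, 14.8 and 17.5 CPM with KB-0742. In RH4, RAD51D was at 19.8, 10.3, 10.9 and 4.21 CPM in vehicle, 6.75, 2.35, 5.74 and 5.34 CPM with KI-CDK9d-32 and 1.66, 2.55, 1.77 and 2.49 CPM with KB-0742. With KB-0742 the groups did not overlap in either line, and the changes were -1.68 ± 0.25, adjusted p = 2.7e-07 and -2.41 ± 0.47, adjusted p = 5.7e-05. With KI-CDK9d-32 they were -1.11 ± 0.26 in MOLT4, with no overlap, and -1.18 ± 0.39 in RH4, with overlap, where the call was lost without vehicle replicate 1, 2 or 3 or KI-CDK9d-32 replicate 2 or 4 (adjusted p = 0.051 to 0.23). In PSN1 the change was -0.69 for the degrader and -0.81 for the inhibitor, neither called by edgeR, and DESeq2 called the latter (adjusted p = 0.0482).

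RAD51B (chr14:67819779-68730218, plus strand), the longest gene of the set, moved apart with the compounds in MOLT4. There it was at 6.27, 6.86, 8.46 and 4.86 CPM in vehicle, 11.8, 11.6, 27.7 and 12.9 CPM with KI-CDK9d-32 and 2.71, 1.05, 1.8 and 4.94 CPM with KB-0742. The degrader's values lay above vehicle (1.24 ± 0.40; -1.73, lower, with spike-in scaling), and those of KB-0742 were lower (-1.26 ± 0.45), with overlap. In PSN1 RAD51B fell by 1.45 on the log2 scale with KB-0742 and was at 0.15, not called, with KI-CDK9d-32. The difference between the compounds was 2.50 ± 0.45 in MOLT4 and 1.60 ± 0.52 in PSN1, higher with the degrader. The MOLT4 call with KI-CDK9d-32 was lost without KI-CDK9d-32 replicate 3 (adjusted p = 0.07), and with KB-0742 without vehicle replicate 3 or KB-0742 replicate 2 or 3 (adjusted p = 0.052 to 0.074). The PSN1 call with KB-0742 was lost without vehicle replicate 1 or 4 or KB-0742 replicate 3 or 4 (adjusted p = 0.058 to 0.12), and that between the compounds without KB-0742 replicate 3 or 4 or KI-CDK9d-32 replicate 1 or 3 (adjusted p = 0.055 to 0.075).

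XRCC3, the partner of RAD51C, was lower with KB-0742 in MOLT4 (-1.03 ± 0.26) and RH4 (-0.91 ± 0.20). It was also lower with KI-CDK9d-32 in MOLT4 (-0.63 ± 0.26), a call lost without vehicle replicate 1, 2 or 4 or KI-CDK9d-32 replicate 1, 2 or 3 (adjusted p = 0.069 to 0.17) and, at adjusted p = 0.0722, with DESeq2. RAD54L, a DNA motor of the strand-pairing step, was lower with KI-CDK9d-32 in MOLT4 (-0.46 ± 0.16), lost without vehicle replicate 4 or KI-CDK9d-32 replicate 2 (adjusted p = 0.067) and, at adjusted p = 0.0575, with DESeq2. RAD54L was also lower with the degrader than with KB-0742 in PSN1 (-0.71 ± 0.20).

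Among the genes of break sensing and resection, BLM (chr15:90717327-90816165, plus strand), the helicase that unwinds ends and dissolves crossovers, was higher than vehicle in every line. In MOLT4, BLM was at 10.9, 12.2, 12.3 and 13.3 CPM in vehicle, 32.8, 31.7, 27.7 and 20.5 CPM with KI-CDK9d-32 and 28.9, 23, 23.8 and 23.6 CPM with KB-0742. In PSN1, BLM was at 4.21, 8.9, 4.14 and 4.13 CPM in vehicle, 14.6, 8.55, 10.9 and 9.97 CPM with KI-CDK9d-32 and 12.5, 11.9, 12 and 11.5 CPM with KB-0742. In RH4, BLM was at 16.7, 20.6, 22.9 and 19.1 CPM in vehicle, 35.1, 32.2, 26.2 and 38.5 CPM with KI-CDK9d-32 and 28.2, 35.1, 33.6 and 34 CPM with KB-0742. Only in PSN1 with the degrader did a treated value (8.55 CPM) fall under a vehicle value (8.9 CPM, replicate 2).

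The changes of BLM with KI-CDK9d-32 were 1.21 ± 0.23, 1.06 ± 0.36 and 0.74 ± 0.20 in MOLT4, PSN1 and RH4, and with KB-0742 1.03 ± 0.23, 1.19 ± 0.35 and 0.72 ± 0.20. With spike-in scaling the same changes were -1.65, 0.10 and -0.19, and -0.32, 0.28 and -0.87, below 0 in MOLT4 and RH4 and not called higher in PSN1. The PSN1 call with the degrader was lost without vehicle replicate 1, 3 or 4 or KI-CDK9d-32 replicate 1 or 3 (adjusted p = 0.05 to 0.098). No difference between the compounds was called for BLM in any line, at 0.18 ± 0.22, -0.13 ± 0.34 and 0.02 ± 0.20.

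EXO1 (chr1:241847967-241895148, plus strand) fell in MOLT4 with the degrader. It was there at 21, 21.2, 25.7 and 25.9 CPM in vehicle, 3.93, 3.66, 10.1 and 7.02 CPM with KI-CDK9d-32 and 21.2, 24.1, 31 and 29.6 CPM with KB-0742. The degrader's values lay below all others, and KB-0742 overlapped vehicle. The change was -1.97 ± 0.29, adjusted p = 1.3e-07, and the difference from KB-0742 -2.15 ± 0.29. In PSN1 EXO1 was lower with KB-0742 (-0.85 ± 0.32), lost without vehicle replicate 1 or 2 or KB-0742 replicate 3 or 4 (adjusted p = 0.057 to 0.14), and in RH4 it was not called with either compound. The degrader's effect on EXO1 differed between MOLT4 and RH4 (-1.56 ± 0.46, adjusted p = 0.013).

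RBBP8 was lower with KB-0742 in MOLT4 (-0.80 ± 0.19) and RH4 (-0.98 ± 0.24), and with KI-CDK9d-32 in RH4 (-0.83 ± 0.22), lost without KI-CDK9d-32 replicate 4 (adjusted p = 0.057). The degrader's effect on RBBP8 was higher in MOLT4 than in RH4 (0.96 ± 0.34, adjusted p = 0.042; -1.01 with spike-in scaling). Of the MRE11 complex, NBN was lower with KB-0742 in MOLT4 (-0.65 ± 0.23) and RH4 (-1.66 ± 0.53), the MOLT4 call being lost without KB-0742 replicate 2 (adjusted p = 0.1). RAD50 was lower with KB-0742 in RH4 (-1.25 ± 0.49), lost without vehicle replicate 1, 2, 3 or 4 or KB-0742 replicate 2, 3 or 4 (adjusted p = 0.052 to 0.076). Its counts in that KB-0742 group were 17, 13, 15 and 0, and single libraries of other groups, vehicle among them, also held 0. RAD50 shares an exon with AC116366.3 on the same strand, and whether this bears on the zeros was not tested. MRE11 was higher with KI-CDK9d-32 in MOLT4 (0.56 ± 0.23; -2.38, lower, with spike-in scaling), lost without vehicle replicate 1 or 3 or KI-CDK9d-32 replicate 3 (adjusted p = 0.057 to 0.15). It was higher with the degrader than with KB-0742 in PSN1 (0.76 ± 0.24), lost without KB-0742 replicate 3 or KI-CDK9d-32 replicate 1 or 2 (adjusted p = 0.051 to 0.1), and in MOLT4 (0.70 ± 0.23; -0.92 with spike-in scaling), lost without KI-CDK9d-32 replicate 3 (adjusted p = 0.057).

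Of the checkpoint kinases, CHEK2 (chr22:28687743-28742422, minus strand), which relays the signal of ATM, fell most with KI-CDK9d-32 at 8 h. In MOLT4, CHEK2 was at 21, 33, 24.3 and 26.9 CPM in vehicle, 3.93, 7.93, 4.61 and 1.75 CPM with KI-CDK9d-32 and 9.03, 23, 16.6 and 20.9 CPM with KB-0742. In PSN1, CHEK2 was at 10.3, 6.36, 5.62 and 9.35 CPM in vehicle, 3.33, 3.72, 4.99 and 3.99 CPM with KI-CDK9d-32 and 6.47, 6.99, 7.74 and 2.62 CPM with KB-0742. In RH4, CHEK2 was at 25.6, 25.2, 22.1 and 19.9 CPM in vehicle, 11.2, 9.4, 9.84 and 13.2 CPM with KI-CDK9d-32 and 19.4, 12.8, 14.7 and 14.1 CPM with KB-0742. Each library with the degrader lay below every vehicle library of its line. The change with KI-CDK9d-32 was -2.52 ± 0.34, adjusted p = 1.1e-08 in MOLT4, -0.98 ± 0.43, adjusted p = 0.099, not called, in PSN1 and -1.08 ± 0.23, adjusted p = 0.00081 in RH4. In MOLT4 the effect of the degrader on CHEK2 was -2.42 ± 0.44, adjusted p = 6.6e-05 from 4 h to 8 h. It differed from PSN1 (-1.42 ± 0.52, adjusted p = 0.049) and from RH4 (-1.31 ± 0.47, adjusted p = 0.045), and both line differences were lost when relative log expression took the place of TMM (adjusted p = 0.067 and 0.0564). With KB-0742 CHEK2 was lower in RH4 (-0.59 ± 0.24), lost without vehicle replicate 1 or 2 or KB-0742 replicate 2, 3 or 4 (adjusted p = 0.072 to 0.1).

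ATM (chr11:108222484-108369102, plus strand), the kinase of double-strand breaks, was lower with KB-0742 in PSN1 (-1.06 ± 0.29, adjusted p = 0.0042) and RH4 (-0.73 ± 0.28, adjusted p = 0.028), and not called in MOLT4 (-0.85 ± 0.38, adjusted p = 0.06). In PSN1, ATM was at 21.1, 20.8, 18 and 26.4 CPM in vehicle, 12.1, 10.4, 13.1 and 19.9 CPM with KI-CDK9d-32 and 10.8, 6.99, 6.88 and 17.3 CPM with KB-0742. In RH4, ATM was at 15.2, 23.5, 16.9 and 20.5 CPM in vehicle, 22.9, 16.4, 12.3 and 15.7 CPM with KI-CDK9d-32 and 14.9, 8.29, 13.6 and 8.29 CPM with KB-0742. In MOLT4, ATM was at 8.17, 10.3, 14.1 and 8.09 CPM in vehicle, 14.4, 12.8, 5.53 and 19.9 CPM with KI-CDK9d-32 and 4.97, 6.29, 5.39 and 5.7 CPM with KB-0742. The KB-0742 and vehicle groups did not overlap in any of the 3 lines. The RH4 call was lost without vehicle replicate 2 or 4 or KB-0742 replicate 2 or 4 (adjusted p = 0.057 to 0.098). With KI-CDK9d-32 ATM was at 0.41, -0.65 and -0.18, called in no line, and between the compounds it was higher with the degrader in MOLT4 (1.26 ± 0.40; -0.10 with spike-in scaling).

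ATR, the kinase of stalled forks, was higher with KI-CDK9d-32 in MOLT4 (1.04 ± 0.36; -1.91, lower, with spike-in scaling), lost without KI-CDK9d-32 replicate 3 (adjusted p = 0.072). The effect there was higher than in PSN1 (1.44 ± 0.53, adjusted p = 0.049; -0.69 with spike-in scaling), and in RH4 ATR was higher with the degrader than with KB-0742 (1.33 ± 0.36). CHEK1 (chr11:125625136-125676255, plus strand), the kinase below ATR, was in MOLT4 at 39, 37.7, 48.6 and 43.7 CPM in vehicle, 49.2, 69, 43.4 and 57.9 CPM with KI-CDK9d-32 and 61, 58.1, 48.5 and 63.8 CPM with KB-0742. The groups overlapped. It was called higher with KB-0742 (0.46 ± 0.17, but -0.87, not called, with spike-in scaling). That call was lost without vehicle replicate 1 or 2 or KB-0742 replicate 4 (adjusted p = 0.053 to 0.064). Beyond it, edgeR called CHEK1 in no other comparison with vehicle at 8 h. With KI-CDK9d-32 in MOLT4 (0.39; -2.37 with spike-in scaling) DESeq2 called it higher (adjusted p = 0.00979).

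In the Fanconi core, FANCL (chr2:58159243-58241372, minus strand), the subunit with ligase activity, fell with the inhibitor to a like extent in each line. In MOLT4, FANCL was at 13.4, 15.6, 9.51 and 10.7 CPM in vehicle, 9.83, 8.54, 9.22 and 10.5 CPM with KI-CDK9d-32 and 4.07, 0.524, 0.899 and 3.8 CPM with KB-0742. In PSN1, FANCL was at 21.8, 20.3, 16.9 and 11.8 CPM in vehicle, 15, 11.2, 14.1 and 8.97 CPM with KI-CDK9d-32 and 1.29, 2.47, 4.73 and 4.18 CPM with KB-0742. In RH4, FANCL was at 34.5, 28, 28.4 and 26.7 CPM in vehicle, 23.8, 18.5, 27.9 and 18.9 CPM with KI-CDK9d-32 and 6.09, 3.82, 8.25 and 2.49 CPM with KB-0742. KB-0742 and vehicle groups did not overlap, and the degrader's values overlapped vehicle in every line.

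The change of FANCL with KB-0742 was -2.33 ± 0.41, adjusted p = 5.9e-06 in MOLT4, -2.47 ± 0.34, adjusted p = 4.1e-07 in PSN1 and -2.45 ± 0.29, adjusted p = 5.8e-09 in RH4. With KI-CDK9d-32 it was -0.37 ± 0.37, -0.51 ± 0.29 and -0.41 ± 0.23, not called. The compounds differed by 1.97 ± 0.44, 1.96 ± 0.35 and 2.04 ± 0.30, higher with the degrader, and by 0.50, 1.98 and 2.74 with spike-in scaling.

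UBE2T (chr1:202331657-202341980, minus strand; its start region is printed above), the E2 enzyme that FANCL uses, had the highest level per length of the set in vehicle at 8 h, at mean levels of 258, 269 and 171 TPM (transcripts per length, scaled to a common total) in MOLT4, PSN1 and RH4. In MOLT4, UBE2T was at 184, 192, 221 and 165 CPM in vehicle, 59, 76.3, 71.9 and 62.6 CPM with KI-CDK9d-32 and 126, 138, 223 and 167 CPM with KB-0742. In PSN1, UBE2T was at 269, 233, 195 and 218 CPM in vehicle, 128, 161, 123 and 114 CPM with KI-CDK9d-32 and 90.6, 106, 86 and 65.9 CPM with KB-0742. In RH4, UBE2T was at 120, 104, 132 and 120 CPM in vehicle, 52.6, 67.8, 109 and 93.7 CPM with KI-CDK9d-32 and 52, 45.9, 35.4 and 45.6 CPM with KB-0742. All groups lay below vehicle except KB-0742 in MOLT4 and, by 1 library, KI-CDK9d-32 in RH4. The change with KI-CDK9d-32 was -1.50 ± 0.14, -0.79 ± 0.13 and -0.55 ± 0.16 in MOLT4, PSN1 and RH4, the RH4 call being lost without KI-CDK9d-32 replicate 1 or 2 (adjusted p = 0.059 to 0.087). With KB-0742 it was -0.22 ± 0.13, not called, -1.38 ± 0.13 and -1.41 ± 0.17. The 2 compounds thus lay in opposite order by line: UBE2T was lower with the degrader than with KB-0742 in MOLT4 (-1.28 ± 0.14) and higher in PSN1 (0.59 ± 0.13) and RH4 (0.86 ± 0.18). Between lines, the effect of KB-0742 was higher in MOLT4 than in PSN1 (1.13 ± 0.24, adjusted p = 0.00089) and than in RH4 (1.13 ± 0.25, adjusted p = 0.0019), and that of KI-CDK9d-32 was lower in MOLT4 than in RH4 (-0.82 ± 0.25, adjusted p = 0.016).

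UBE2T also changed between 4 h and 8 h. In MOLT4 its change with KB-0742 went from -1.18 to -0.22 (difference 0.96 ± 0.19, adjusted p = 0.0002), while with KI-CDK9d-32 it went from -0.54 to -1.50 (-0.95 ± 0.20, adjusted p = 0.00039). In PSN1 with KB-0742 it went from -0.25 to -1.38 (-1.13 ± 0.18, adjusted p = 0.00015).

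**Figure D4:**
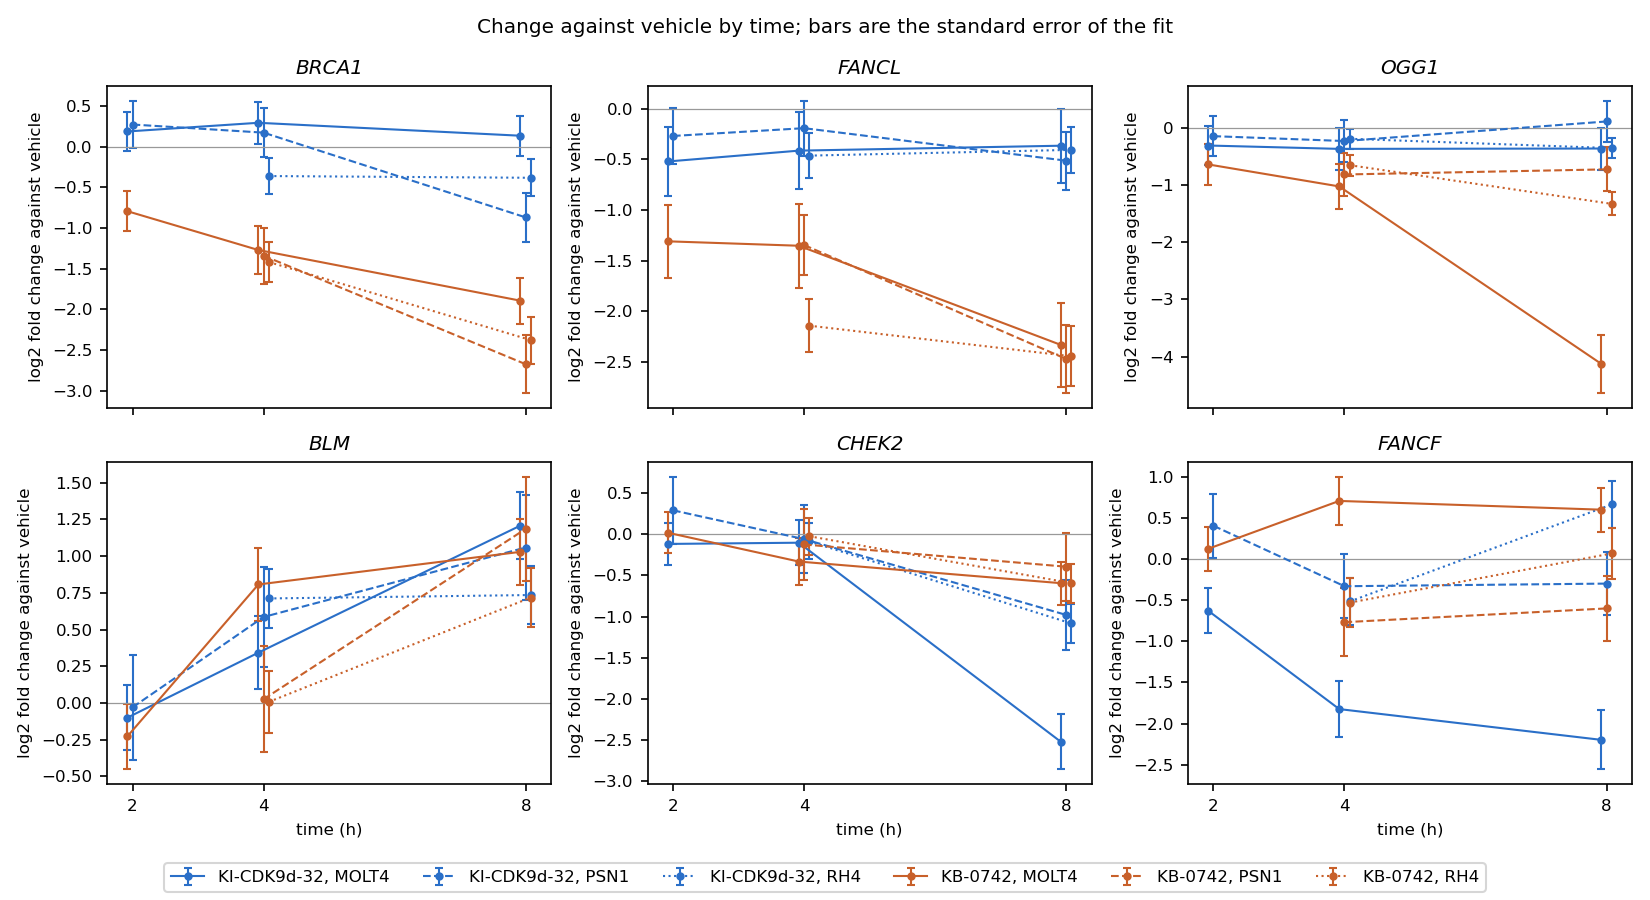
Change from the vehicle of the same time (log2 fold change ± standard error, TMM scale) at 2, 4 and 8 h for BRCA1, FANCL, OGG1, BLM, CHEK2 and FANCF, by compound (colour) and line (line style). BRCA1 with KB-0742 is below 0 at every time measured, and OGG1 in MOLT4 with KB-0742 drops from -1.03 at 4 h to -4.13 at 8 h.

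FANCF (chr11:22622890-22625841, minus strand), an adaptor of the core complex with a single exon and the shortest gene of the set, fell in MOLT4 with the degrader and was not called lower elsewhere at 8 h. In MOLT4, FANCF was at 15.5, 16.5, 18.3 and 16.8 CPM in vehicle, 2.62, 5.49, 0 and 5.26 CPM with KI-CDK9d-32 and 32.5, 26.2, 21.6 and 21.7 CPM with KB-0742. The degrader's values lay below every other library, and those of KB-0742 above vehicle, though edgeR did not call this (0.60 ± 0.27, adjusted p = 0.058; -0.75 with spike-in scaling), while DESeq2 did (adjusted p = 0.0176). The change with KI-CDK9d-32 was -2.20 ± 0.36, adjusted p = 1.1e-06, and the difference from KB-0742 -2.80 ± 0.35. In PSN1 (-0.30) and RH4 (0.66) the degrader's change was not called, and the MOLT4 effect differed from PSN1 (-1.78 ± 0.58, adjusted p = 0.025) and from RH4 (-2.74 ± 0.56, adjusted p = 0.0003).

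FANCA (chr16:89737549-89816657, minus strand; start region above), a large subunit of the core, was lower with KB-0742 in MOLT4 (-0.77 ± 0.17), PSN1 (-0.76 ± 0.26) and RH4 (-0.73 ± 0.24). In MOLT4, FANCA was at 41.1, 46.8, 55 and 53.4 CPM in vehicle, 71.4, 42.7, 53.5 and 72.5 CPM with KI-CDK9d-32 and 35.7, 23.6, 26.5 and 28.5 CPM with KB-0742. In PSN1, FANCA was at 21.1, 38.1, 25.4 and 21.2 CPM in vehicle, 12.1, 15.2, 14.5 and 9.97 CPM with KI-CDK9d-32 and 12.1, 17.3, 22.8 and 9.41 CPM with KB-0742. In RH4, FANCA was at 46.8, 36.6, 35.6 and 38.8 CPM in vehicle, 27, 39.3, 25.4 and 38.1 CPM with KI-CDK9d-32 and 9.96, 27.4, 30.1 and 29 CPM with KB-0742. KB-0742 lay below vehicle without overlap in MOLT4 and RH4, and the degrader below vehicle in PSN1. The PSN1 call with KB-0742 was lost without vehicle replicate 2 or KB-0742 replicate 1 or 4 (adjusted p = 0.079 to 0.13), and that in RH4 without KB-0742 replicate 1 (adjusted p = 0.096). With KI-CDK9d-32 the change was -1.01 ± 0.26, adjusted p = 0.0046 in PSN1 and 0.30 ± 0.16, adjusted p = 0.13, not called by edgeR (DESeq2 adjusted p = 0.0236), in MOLT4, a difference between lines of 1.43 ± 0.36, adjusted p = 0.0033, which turned to -0.54 with spike-in scaling. The effect of KB-0742 on FANCA in MOLT4 fell further from 4 h to 8 h (-0.68 ± 0.25, adjusted p = 0.049), a call lost in 10 refits that left out 1 library and with relative log expression scaling (adjusted p = 0.0826).

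FANCB (chrX:14835961-14873069, minus strand), which pairs with FANCL in the catalytic module, was in PSN1 at 24.1, 13.6, 13.3 and 8.25 CPM in vehicle, 5.41, 4.83, 13.6 and 4.98 CPM with KI-CDK9d-32 and 4.31, 5.34, 2.15 and 3.66 CPM with KB-0742. KB-0742 lay below vehicle there (-1.91 ± 0.37, adjusted p = 9.5e-05), and the degrader overlapped it through replicate 3 at 13.6 CPM (-1.03 ± 0.34, adjusted p = 0.026, lost without vehicle replicate 1 or KI-CDK9d-32 replicate 1, 2 or 4 (adjusted p = 0.076 to 0.17)). FANCG, an adaptor, was lower in MOLT4 with KI-CDK9d-32 (-0.83 ± 0.17) and KB-0742 (-0.87 ± 0.16). FANCG was lower with the degrader than with KB-0742 in PSN1 (-0.60 ± 0.21), lost without KB-0742 replicate 1 or 2 or KI-CDK9d-32 replicate 1, 3 or 4 (adjusted p = 0.05 to 0.17). FANCC, another adaptor, was lower with KB-0742 in MOLT4 (-0.94 ± 0.38), lost without vehicle replicate 1 or 3 or KB-0742 replicate 1, 2 or 4 (adjusted p = 0.05 to 0.12), and higher with the degrader than with KB-0742 there (1.48 ± 0.39; 0.09 with spike-in scaling).

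FANCE (chr6:35452356-35467103, plus strand), the subunit that binds FANCD2, was tested only in RH4. It was there at 4.88, 1.14, 7.46 and 2.25 CPM in vehicle, 1.35, 2.69, 2.05 and 2.49 CPM with KI-CDK9d-32 and 0, 0, 0.589 and 1.66 CPM with KB-0742. KB-0742 held 3 counts over its 4 libraries against 55 in vehicle, a ratio of 0.122 after library size with a 95% counting interval of 0.0244 to 0.375, and edgeR called it lower. The ratio of KI-CDK9d-32 to KB-0742 was 4.61 (1.39 to 24.0), with 23 counts against 3, and was not called.

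FANCM (chr14:45135940-45200890, plus strand; start region above), the translocase that brings the core complex to DNA, was higher with KB-0742 on the TMM scale in all 3 lines. In MOLT4, FANCM was at 5.99, 8.42, 8.1 and 9.71 CPM in vehicle, 5.9, 6.1, 7.38 and 4.68 CPM with KI-CDK9d-32 and 23.9, 13.6, 10.3 and 10.6 CPM with KB-0742. In PSN1, FANCM was at 6.9, 5.51, 3.85 and 4.4 CPM in vehicle, 15, 6.32, 4.08 and 5.48 CPM with KI-CDK9d-32 and 9.49, 13.6, 16.3 and 15.7 CPM with KB-0742. In RH4, FANCM was at 3.73, 5.43, 8.6 and 11.8 CPM in vehicle, 5.85, 13.8, 7.38 and 4.99 CPM with KI-CDK9d-32 and 12.7, 26.8, 21.8 and 21.6 CPM with KB-0742. The KB-0742 groups lay above vehicle without overlap, and the degrader overlapped vehicle. The change with KB-0742 was 0.86 ± 0.35, adjusted p = 0.038 in MOLT4, 1.42 ± 0.38, adjusted p = 0.0037 in PSN1 and 1.47 ± 0.37, adjusted p = 0.0011 in RH4. With spike-in scaling it was -0.55 in MOLT4, -0.13 in RH4 and 0.50 in PSN1, called in none of them. The MOLT4 call was lost without vehicle replicate 1, 2 or 3 or KB-0742 replicate 1 or 2 (adjusted p = 0.051 to 0.27). Against KB-0742 the degrader was lower in MOLT4 (-1.29 ± 0.39) and RH4 (-1.35 ± 0.37). In RH4 the effect of KB-0742 went from -0.17 at 4 h to 1.47 at 8 h (1.65 ± 0.53, adjusted p = 0.042), a change lost in 12 of the refits that each left out 1 library.

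FANCD2 and FANCI are the pair that receives the ubiquitin. FANCD2 (chr3:10026414-10101930, plus strand) was in MOLT4 at 41.7, 44.3, 39.5 and 41.8 CPM in vehicle, 49.2, 73.8, 56.3 and 57.9 CPM with KI-CDK9d-32 and 56.5, 45, 40 and 37.6 CPM with KB-0742. The degrader lay above vehicle there (0.51 ± 0.17, adjusted p = 0.012), but below it with spike-in scaling (-2.29), and the call was lost without KI-CDK9d-32 replicate 2 (adjusted p = 0.059). In PSN1 and RH4 no change of FANCD2 from vehicle at 8 h was called, at -0.33 to -0.02, though at 4 h it was lower with KB-0742 in PSN1 (-0.75 ± 0.20) and RH4 (-0.50 ± 0.14). At 8 h the degrader's effect was higher in MOLT4 than in PSN1 (0.78 ± 0.25, adjusted p = 0.022; -1.19 with spike-in scaling). FANCI moved in opposite directions in MOLT4: higher with KI-CDK9d-32 (0.61 ± 0.13; -2.20, lower, with spike-in scaling) and lower with KB-0742 (-0.72 ± 0.14), with 132, 108, 133 and 139 CPM and 47.9, 49.2, 61.6 and 46 CPM around vehicle at 83.1, 81.4, 96.9 and 75.1 CPM. The effect of KB-0742 on FANCI was lower in MOLT4 than in PSN1 (-0.88 ± 0.24, adjusted p = 0.012) and RH4 (-1.02 ± 0.24, adjusted p = 0.0031).

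OGG1 (chr3:9749944-9788219, plus strand; start region above), the glycosylase for oxidised guanine, is the member whose response to KB-0742 depended most on the line. In MOLT4, OGG1 was at 22.1, 12.5, 14.4 and 8.09 CPM in vehicle, 2.62, 9.76, 14.8 and 17.5 CPM with KI-CDK9d-32 and 0.903, 0, 1.35 and 0.76 CPM with KB-0742. In PSN1, OGG1 was at 6.9, 12.7, 18.6 and 26.1 CPM in vehicle, 29.1, 13.8, 9.52 and 17.9 CPM with KI-CDK9d-32 and 9.49, 17.7, 6.45 and 5.23 CPM with KB-0742. In RH4, OGG1 was at 52.8, 42.3, 43 and 43 CPM in vehicle, 38.2, 36.9, 30.8 and 35.3 CPM with KI-CDK9d-32 and 20.5, 22.9, 12.4 and 15.7 CPM with KB-0742. In MOLT4 the inhibitor left at most 1.35 CPM in any library, below all others. These values rest on 2, 0, 3 and 2 counts, so the size of the fall is uncertain. In RH4 the inhibitor lay below vehicle without overlap, and in PSN1 the groups overlapped. The change was -1.33 ± 0.20, adjusted p = 5.3e-07 in RH4 and -0.73 ± 0.38, adjusted p = 0.15, not called, in PSN1. The effect in MOLT4 differed from PSN1 (-3.42 ± 0.73, adjusted p = 0.0011) and from RH4 (-2.84 ± 0.73, adjusted p = 0.0083). It was -0.64 at 2 h, -1.03 at 4 h and -4.13 at 8 h, a change of -3.10 ± 0.68, adjusted p = 0.00075 from 4 h to 8 h. With KI-CDK9d-32 OGG1 was called in no line at 8 h (-0.37, 0.11 and -0.36), and it was higher with the degrader than with KB-0742 in MOLT4 (3.76 ± 0.55) and RH4 (0.97 ± 0.20).

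Compared directly, the compounds shared no vehicle term. At 8 h, members were lower with KI-CDK9d-32 than with KB-0742 in 7 of 33 cases in MOLT4, 3 of 33 in PSN1 and 2 of 34 in RH4 (29.6%, 12.8% and 19.3% of all genes), and higher in 12, 5 and 7 (28.9%, 12% and 19.1%). With spike-in scaling these became 16, 1 and 0 lower and 1, 2 and 22 higher, so the split in MOLT4 turned with the scaling. The median difference of all genes tested on that scale was -1.46, 0.01 and 0.71 in MOLT4, PSN1 and RH4. The share of all genes called on it is not given, so these counts do not set the members apart. On the TMM scale only BRCA1 and FANCL were higher with the degrader in all 3 lines. With spike-in scaling 1 of 33 members was called higher in MOLT4, so BRCA1 and FANCL were not both called there. In MOLT4 BRIP1 (1.14), RBBP8 (0.80), FANCI (1.32), FANCA (1.07) and FANCD2 (0.41) were higher on the TMM scale but at -0.26, -0.67, -0.18, -0.37 and -1.03 with spike-in scaling. Of these, BRIP1 was lost without KI-CDK9d-32 replicate 4 (adjusted p = 0.065) and FANCD2 without KB-0742 replicate 2, 3 or 4 or KI-CDK9d-32 replicate 2 (adjusted p = 0.058 to 0.16). The 5 higher in PSN1 became 3 without KB-0742 replicate 3 or without KI-CDK9d-32 replicate 1.

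Fewer members differed between the compounds at 4 h than at 8 h in MOLT4 and PSN1, and more in RH4. The shares of all genes called were smaller at 4 h than at 8 h in every line. The members of MOLT4 and PSN1 thus followed all genes. At 4 h, 5 of 33 members were lower and 6 higher with the degrader in MOLT4 (21.1% and 14.6% of all genes), 0 and 4 in PSN1 (7.47% and 9.97%) and 1 and 14 in RH4 (12.4% and 13.4%). BRCA1 was higher in each line at 4 h (1.56 ± 0.28, 1.51 ± 0.35 and 1.06 ± 0.25). The 14 in RH4 became 9 without KB-0742 replicate 4. At 2 h in MOLT4, 0 of 33 were lower and 3 higher (10.1% and 8.2%): BRCA1, XRCC3 and XRCC2.

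Between lines, the fit over the 36 libraries at 8 h called differences in a compound's effect only where MOLT4 was one of the lines. For the degrader, 6 members differed between MOLT4 and PSN1 (BRCA1, FANCD2, ATR and FANCA higher in MOLT4, FANCF and CHEK2 lower) and 5 between MOLT4 and RH4 (RBBP8 higher, UBE2T, EXO1, FANCF and CHEK2 lower). Of all 13843 genes tested there, 7.65% were higher and 9.54% lower in MOLT4 than in PSN1, and 7.1% and 9.19% than in RH4, so the members' counts lay near those of all genes. For KB-0742, 4 differed between MOLT4 and PSN1 (UBE2T higher, OGG1, FANCI and FANCG lower) and 3 between MOLT4 and RH4 (UBE2T higher, OGG1 and FANCI lower), beside 4.51% higher and 6.73% lower of all genes against PSN1 and 2.85% and 5.55% against RH4. Between PSN1 and RH4 edgeR called 0 members for either compound. Of all genes, 0.166% were called lower and 0.289% higher in PSN1 with the degrader and 3.95% and 2.75% with KB-0742. The unadjusted p was under 0.05 for 2 members with the degrader and 6 with KB-0742. The share of all genes at that unadjusted threshold is not given. The 5 members higher in MOLT4 with the degrader (BRCA1, FANCD2, ATR, FANCA and RBBP8) had differences below 0 with spike-in scaling, at -0.80, -1.19, -0.69, -0.54 and -1.01. On that scale the difference of FANCD2 was called and those of BRCA1 and FANCA were not.

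The line differences of FANCA between MOLT4 and PSN1, of EXO1 and FANCF between MOLT4 and RH4, and all 7 with KB-0742 stayed called without any 1 library. The rest were lost without some libraries: BRCA1 most so without MOLT4 KI-CDK9d-32 replicate 4 (adjusted p = 0.2), FANCD2 without MOLT4 KI-CDK9d-32 replicate 2 (adjusted p = 0.071), ATR without PSN1 vehicle replicate 1 (adjusted p = 0.31), FANCF against PSN1 without PSN1 KI-CDK9d-32 replicate 4 (adjusted p = 0.21) and CHEK2 without MOLT4 KI-CDK9d-32 replicate 4 (adjusted p = 0.14) against PSN1. Against RH4, UBE2T was lost without RH4 KI-CDK9d-32 replicate 3 (adjusted p = 0.076), RBBP8 most so without RH4 KI-CDK9d-32 replicate 4 (adjusted p = 0.14) and CHEK2 without MOLT4 KI-CDK9d-32 replicate 4 (adjusted p = 0.15).

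In MOLT4 the degrader's changes ran with gene length. Over the 33 members tested, Spearman's rho between the span of the gene in the genome and the log2 fold change at 8 h was 0.69, with the shortest gene, FANCF (2952 bp), at -2.20 and the longest, RAD51B (910440 bp), at 1.24. Over all genes tested with a span it was -0.00. It was 0.34 at 2 h and 0.56 at 4 h. The same value was -0.10 with KB-0742 in MOLT4, 0.08 with the degrader in PSN1 and 0.07 with the degrader in RH4. The points share their libraries and their depth, and the value is a description of these members. The median span of the members was 67422 bp.

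**Figure D5:**
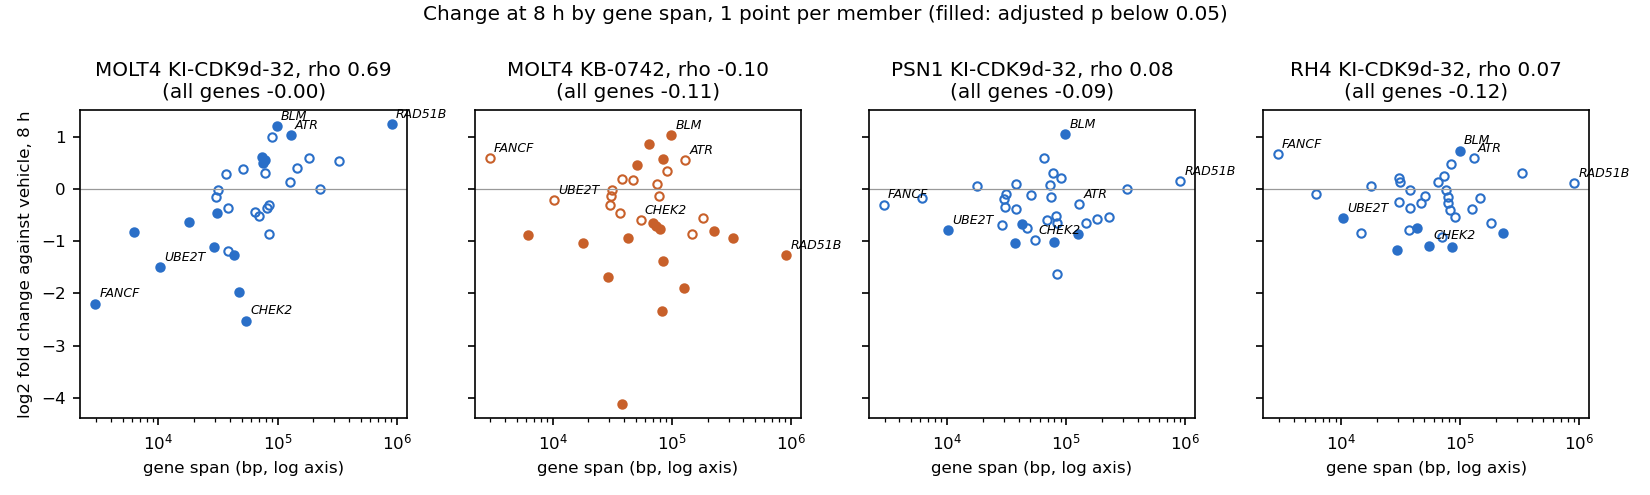
Change from vehicle at 8 h (log2 fold change, TMM scale) against the genomic span of each member (bp, log axis; 1 point per member, filled where called), with KI-CDK9d-32 in each line and with KB-0742 in MOLT4. In MOLT4 with KI-CDK9d-32 FANCF, the shortest, lies at -2.20 and RAD51B, the longest, at 1.24 (at -1.73 with spike-in scaling); rho is 0.69 in that panel and between -0.10 and 0.08 in the other 3.

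CDK12, with CDK13 and their cyclin CCNK, is the kinase known for the transcription of long repair genes. CDK12 transcripts were higher with KB-0742 in MOLT4 (1.03 ± 0.22, adjusted p = 0.00013) and RH4 (0.65 ± 0.21, adjusted p = 0.012) and at -0.14 ± 0.28 in PSN1, not called. With KI-CDK9d-32 they were lower in PSN1 (-1.24 ± 0.30, adjusted p = 0.002) and not called in MOLT4 (-0.24 ± 0.25) or RH4 (-0.27 ± 0.22). With spike-in scaling CDK12 was at -0.27 and -0.94 with KB-0742 in MOLT4 and RH4, so neither rise held there. CDK13 was called against vehicle at 8 h in no line, and CCNK was higher in MOLT4 with KI-CDK9d-32 (0.70 ± 0.16) and KB-0742 (0.55 ± 0.16), though at -2.10 and -0.75 with spike-in scaling. These are transcript levels, and kinase activity was not measured.

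Other genes of recombination and the Fanconi pathway, a list of 49, also had more members lower than higher at 8 h. With KI-CDK9d-32, 18 of 49 were lower and 11 higher in MOLT4, 10 of 47 and 4 in PSN1, and 8 of 48 and 5 in RH4 (of all genes, 28.7% and 20.8%, 9.61% and 11%, and 6.05% and 9.19%). With KB-0742, 17 of 49 were lower and 9 higher in MOLT4, 11 of 47 and 4 in PSN1, and 13 of 48 and 10 in RH4 (of all genes, 25.8% and 23.4%, 15.1% and 15.1%, and 22.9% and 22.5%), the RH4 counts lying near those of all genes. SFR1, a cofactor of strand pairing, fell with KB-0742 in MOLT4 (-3.02 ± 0.80) and PSN1 (-2.71 ± 0.33) and in RH4, where 3 counts stood against 145 in vehicle, a ratio of 0.0462 after library size with a 95% counting interval of 0.00942 to 0.138. Its partner SWI5 fell with KB-0742 (-2.46 ± 0.35) and KI-CDK9d-32 (-2.40 ± 0.38) in MOLT4. RAD51AP1 fell with KB-0742 in RH4 (-2.83 ± 0.51). BAP1, a deubiquitinase, was higher with KB-0742 in PSN1 (1.99 ± 0.19), also with spike-in scaling (1.12).

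Of 15 genes of end joining, the competing pathway, 14 or 15 were tested in each line. With KI-CDK9d-32, 3 of 15 were lower and 3 higher in MOLT4, 1 of 14 and 0 in PSN1, and 1 of 14 and 1 in RH4, and with KB-0742, 4 and 3, 1 and 2, and 3 and 2, beside the shares of all genes just given. NHEJ1, a ligation cofactor, fell with KB-0742 in MOLT4 (-1.01 ± 0.26), PSN1 (-0.91 ± 0.27) and RH4 (-0.98 ± 0.23). XRCC6, a subunit of the Ku end-binding complex, was higher with KB-0742 in MOLT4 (0.89 ± 0.08) and RH4 (0.96 ± 0.09) on the TMM scale and at -0.44 and -0.63 with spike-in scaling. RIF1, an end-protection factor, was higher with KB-0742 in PSN1 (0.97 ± 0.22; 0.09 with spike-in scaling). Of 19 other genes of base excision and single-strand breaks, 12 were lower and 1 higher with KB-0742 in MOLT4, 4 and 0 for PSN1 and 7 and 3 for RH4. Of all genes these shares were 25.8% and 23.4%, 15.1% and 15.1%, and 22.9% and 22.5%. With KI-CDK9d-32 the counts were 5 and 4, 3 and 1, and 5 and 2 (28.7% and 20.8%, 9.61% and 11%, and 6.05% and 9.19%). Those in MOLT4 with KI-CDK9d-32 lay near the shares of all genes. NTHL1, a glycosylase for oxidised pyrimidines, fell in MOLT4 with KB-0742 (-2.23 ± 0.25) and KI-CDK9d-32 (-1.51 ± 0.25). FEN1, the flap nuclease, was higher with KB-0742 in RH4 (1.10 ± 0.13; -0.47 with spike-in scaling).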

How the data were processed

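RNA was profiled by SMART-seq2 with Nextera XT libraries in 3 cell lines, per the labels' protocols, which call the samples biological replicates. The authors deposited 1 table per line of estimated counts per gene, made with Salmon on hg38 per the submitters' processing notes. The Salmon version, annotation release and read filters are not given in the sources used here. The kit keeps no strand and no molecular identifiers. The deposited counts were rounded to whole numbers; 99 spike-in entries were kept apart and 47 pseudoautosomal duplicate entries left out (at most 0.683% of counts were set aside). Gene counts per library ran from 1598283 to 3240753, and 0 columns were left unmapped. Intervals of count ratios cover counting error only.

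One model was fitted per line over all its groups with edgeR 4.0.16 (R 4.3.3, limma 3.58.1): TMM scaling, filterByExpr at a minimum count of 10, quasi-likelihood F test, Benjamini-Hochberg adjustment over all genes tested (11664, 12471 and 12058 for MOLT4, PSN1 and RH4) and calls at 0.05. The standard error is the size of the log2 fold change divided by the root of F. Differences between lines came from 1 fit over the 36 libraries at 8 h (13843 genes). Levels per length are the authors' deposited log2 TPM values, per the file headers and values made from the same quantification, put back on the linear scale with 1 subtracted. The scripts were tested on simulated data. Comparisons of both compounds with vehicle share the vehicle libraries. Named members were fixed genes (BRCA1, BRCA2, FANCD2, ATM, CHEK1 and OGG1) and the called members of extreme log2 fold change at 8 h; further members were added to account for all 34. The members and lists were chosen with earlier results of these data known. Alternatives were spike-in scaling, relative log expression scaling, DESeq2 1.42.0, no filter on low counts, the replicate number as a block and leaving out each library. No 2 replicates agreed within sampling noise (the lowest chi-square per degree of freedom of a pair was 3.22).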

Additional observations from a re-analysis of the deposited data

Results flagged for a closer look

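Among 162 groups of 4 libraries at 8 h tested for a library far from the others, 11 held one by Dixon's test at the 95% level; chance flags about 1 in 20 groups. In vehicle these were BRCA1 in RH4 replicate 1 (39.6 CPM), BRCA2 in MOLT4 replicate 2 (16.2 CPM), RAD51D in MOLT4 replicate 4 (53.1 CPM), FANCF in PSN1 replicate 1 (4.98 CPM), BLM in PSN1 replicate 2 (8.9 CPM) and OGG1 in RH4 replicate 1 (52.8 CPM). With KI-CDK9d-32 they were RAD51B in MOLT4 replicate 3 (27.7 CPM) and FANCB in PSN1 replicate 3 (13.6 CPM). With KB-0742 they were FANCA in RH4 replicate 1 (9.96 CPM), FANCB in MOLT4 replicate 3 (4.94 CPM) and BLM in MOLT4 replicate 1 (28.9 CPM). FANCA in RH4 had its low value in the KB-0742 group that was called lower, and RAD51B had its high value in the MOLT4 library with the largest spike-in share; the part of these libraries in the calls is given by the refits without each one, named with the genes they changed.

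Several effects differed between lines or times by a test of the difference itself (edgeR, Benjamini-Hochberg adjusted). For KI-CDK9d-32 at 8 h the effect in MOLT4 minus that in PSN1 was 1.13 for BRCA1 (adjusted p = 0.047), 1.43 for FANCA (0.0033), 0.78 for FANCD2 (0.022), -1.78 for FANCF (0.025) and -1.42 for CHEK2 (0.049). The first 3 had the opposite sign with spike-in scaling. Against RH4 it was -2.74 for FANCF (0.0003) and -1.31 for CHEK2 (0.045). For KB-0742 at 8 h the OGG1 effect in MOLT4 was -3.42 relative to PSN1 (0.0011) and -2.84 relative to RH4 (0.0083).

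Between 4 h and 8 h the change from vehicle moved by -2.42 for CHEK2 with KI-CDK9d-32 in MOLT4 (adjusted p = 6.6e-05), by -3.10 for OGG1 (0.00075) and -0.68 for FANCA (0.049) with KB-0742 in MOLT4, and by 1.65 for FANCM with KB-0742 in RH4 (0.042).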

How the results depend on the processing

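With spike-in scaling the members lower than vehicle with KI-CDK9d-32 numbered 0 at 2 h, 15 at 4 h and 33 at 8 h in MOLT4, 7 at 4 h and 24 at 8 h in PSN1 and 25 at 8 h in RH4. With KB-0742 they numbered 26 and 25 at 4 h and 8 h in MOLT4, 25 and 22 for PSN1 and 32 and 32 for RH4, and 0 members were higher than vehicle in any comparison. The median of all genes tested fell as well on that scale. At 8 h it was -2.99, -1.01 and -0.92 with KI-CDK9d-32 in MOLT4, PSN1 and RH4. With KB-0742 it was -1.41, -0.94 and -1.66. The share of all genes called with spike-in scaling is not given, so these counts do not set the members apart. For KI-CDK9d-32 against KB-0742, spike-in scaling gave 0 higher at 2 h, 2 lower and 2 higher at 4 h and 16 lower and 1 higher at 8 h in MOLT4, 1 lower and 2 higher at 8 h in PSN1, and 0 lower with 26 higher at 4 h and 0 lower with 22 higher at 8 h in RH4. DESeq2 gave in MOLT4 1 lower and 5 higher at 2 h and 11 higher at 4 h for KI-CDK9d-32 against KB-0742, and 2 higher with KB-0742 at 4 h. Without the filter on low counts, the members lower with KI-CDK9d-32 were 0 in MOLT4 at 2 h, 0 in PSN1 at 4 h and 3 in PSN1 at 8 h. Those higher were 0 with KI-CDK9d-32 in MOLT4 and RH4 at 4 h and in PSN1 at 8 h, and 0 at 4 h and 2 at 8 h with KB-0742 in MOLT4. In RH4 at 4 h, 0 were lower with KI-CDK9d-32 than with KB-0742. The share of all genes called is likewise not given for DESeq2 or without the filter. Nor is it given below for the replicate block or for fits without 1 library. Those counts do not set the members apart either.

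The deviations of samples with the same replicate number correlated weakly (median 0.022, 0.065 and 0.055 in MOLT4, PSN1 and RH4), and 25 of 35, 31 of 32 and 22 of 24 libraries correlated best with their own number, a hint from the data. With the replicate block, 2 members were lower with KI-CDK9d-32 in MOLT4 at 2 h, 2 lower with KI-CDK9d-32 than with KB-0742 there, 2 higher with KB-0742 in MOLT4 at 4 h and 7 higher with KI-CDK9d-32 than with KB-0742 in PSN1 at 4 h. The other 40 counts stayed within 1.5 times. At 8 h the block lost the calls of PALB2 between the compounds in MOLT4 (adjusted p = 0.05), RAD50 with KB-0742 in RH4 (0.0504) and FANCM with KB-0742 in MOLT4 (0.0503), and RAD51D with KB-0742 in PSN1 at 4 h (0.0536). It added RAD51D with KB-0742 in PSN1 (0.0396) and between the compounds in RH4 (0.0492), CHEK2 with KB-0742 in MOLT4 (0.0402) and FANCB with KB-0742 in RH4 (0.0462).

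Without any 1 library, the members lower with KI-CDK9d-32 were 0 to 1 in MOLT4 at 2 h, 3 to 6 at 4 h, 0 to 1 in PSN1 at 4 h, 3 to 6 at 8 h and 3 to 5 in RH4 at 8 h, and those higher 0 to 1 in MOLT4 at 4 h, 0 to 1 in PSN1 at 8 h, 0 to 1 in RH4 at 4 h and 1 to 2 at 8 h. Those lower with KB-0742 were 6 to 11 in MOLT4 at 4 h, 5 to 9 in PSN1 at 4 h and 6 to 11 at 8 h, and those higher in MOLT4 0 to 2 at 4 h and 2 to 4 at 8 h. Between the compounds, those lower were 0 to 1 in MOLT4 at 2 h, 0 to 1 in PSN1 at 4 h and 0 to 1 in RH4 at 4 h, and those higher 3 to 6 in PSN1 at 8 h and 9 to 13 in RH4 at 4 h.

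Of single values, spike-in scaling reversed 37, all from a higher TMM value but 1. With KI-CDK9d-32 in MOLT4 at 8 h these were BRCA1 (-2.59), RAD51B (-1.73), MRE11 (-2.38), ATM (-2.24), ATR (-1.91), CHEK1 (-2.37), FANCA (-2.50), FANCB (-2.60), FANCD2 (-2.29), FANCI (-2.20) and BLM (-1.65), and FANCI at 4 h (-0.58). With KB-0742 in MOLT4 they were BARD1 (-0.75), CHEK1 (-0.87), FANCD2 (-1.26), FANCM (-0.55) and BLM (-0.32) at 8 h and BLM at 4 h (-0.53). In RH4 at 8 h they were BARD1 (-0.97), PALB2 (-0.27), CHEK1 (-1.46), FANCF (-1.52), FANCM (-0.13) and BLM (-0.87) with KB-0742 and BLM (-0.19) with KI-CDK9d-32. Between the compounds they were BRIP1 (-0.26), RBBP8 (-0.67), MRE11 (-0.92), ATM (-0.10), FANCA (-0.37), FANCD2 (-1.03), FANCI (-0.18) and BLM (-1.33) in MOLT4 at 8 h and BARD1 in RH4 at 4 h (0.19). The MOLT4 minus PSN1 differences of BRCA1 (-0.80), FANCA (-0.54) and FANCD2 (-1.19) with KI-CDK9d-32 also turned; the cause was not tested. Among the other single values, DESeq2 moved 8 across the threshold and kept 283 (beside those named with their genes, RAD51D between the compounds in MOLT4 at 8 h was added at adjusted p = 0.0308 and CHEK1 between them at 4 h lost at 0.0915), the replicate block moved 8 and kept 296, relative log expression scaling moved 3 and kept 10, and dropping the filter lost 40 and kept 264. Depth limits the low members: FANCE, BRCA2 and FANCL held few counts in single libraries. At 8 h so did OGG1 with KB-0742 in MOLT4 (2, 0, 3 and 2 counts) and RAD51D with KB-0742 in RH4 (3, 4, 3 and 3). FANCF with KI-CDK9d-32 in MOLT4 held 4, 9, 0 and 9.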
